A study of Homo sapiens with 12 samples.

Results

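The laminin chains described here are the 8 genes LAMA1, LAMA3, LAMA4, LAMA5, LAMB1, LAMB2, LAMB3 and LAMC1. They were taken by name from an array table with 34599 gene names, and every probe of each gene was kept, which gave 17 probes. The study lowered FAK, the focal adhesion kinase encoded by PTK2, in 2 human pancreatic ductal adenocarcinoma cell lines, MIA PaCa-2 and Capan-1, and compared each knockdown with a scrambled hairpin. The 6 groups were MIA PaCa-2 and Capan-1 cells carrying shCtrl (scrambled), sh1209 or sh1319 (the FAK hairpins), with 2 arrays in each. The hairpins sat in a doxycycline-inducible pLKO.1 backbone, and the labels give 50 ng/ml doxycycline for 96 h for all 12 samples, so the controls share the drug and no group was left uninduced. Puromycin selection differed by cell line, with 3.5 ug/ml used on MIA PaCa-2 and a lower 1.5 ug/ml on Capan-1. Whether the replicate arrays of a group stand for separate cultures is not given in the labels, so p-values measure the spread between these arrays, which may be technical.

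Laminins are the main glycoproteins of basement membranes. Each is a trimer of an alpha, a beta and a gamma chain wound into a coiled coil, with a globular end on the alpha chain that cells bind through integrins and dystroglycan. FAK is recruited to focal adhesions, where integrins bind such matrix proteins. LAMA3 and LAMB3 are chains of the laminin that anchors epithelia through hemidesmosomes. LAMA5 is the widespread alpha chain of mature epithelial basement membranes. LAMB1 and LAMB2 are alternative beta chains, and LAMC1 is the gamma chain of most laminins.

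The 250 bases before the RefSeq gene start (GRCh38.p14) are shown for the 4 chains with the largest called differences from shCtrl, as sequence context for them. They run 5′ to 3′ on the gene's strand. Capitals mark 2 motifs searched on both strands: TGAGTCA, the letters bound by AP-1 factors, and GGGCGG, the GC box of SP factors. Windows were given for 7 of the 8 genes, 9 windows in all, since LAMB3 has 3 annotated starts.
LAMA3, chr18:23872770-23873019, plus strand: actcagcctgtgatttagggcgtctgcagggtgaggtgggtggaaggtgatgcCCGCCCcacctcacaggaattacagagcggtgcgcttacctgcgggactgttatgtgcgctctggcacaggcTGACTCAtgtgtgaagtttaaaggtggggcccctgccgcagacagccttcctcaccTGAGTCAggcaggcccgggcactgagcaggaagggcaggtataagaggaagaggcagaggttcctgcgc
LAMB3, chr1:209651375-209651624, minus strand: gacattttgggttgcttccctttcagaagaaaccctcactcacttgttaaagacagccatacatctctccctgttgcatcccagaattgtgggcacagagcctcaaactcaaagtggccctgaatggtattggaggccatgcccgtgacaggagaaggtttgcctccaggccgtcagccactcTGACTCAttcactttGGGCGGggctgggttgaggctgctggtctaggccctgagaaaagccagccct
LAMB1, chr7:108003162-108003411, minus strand: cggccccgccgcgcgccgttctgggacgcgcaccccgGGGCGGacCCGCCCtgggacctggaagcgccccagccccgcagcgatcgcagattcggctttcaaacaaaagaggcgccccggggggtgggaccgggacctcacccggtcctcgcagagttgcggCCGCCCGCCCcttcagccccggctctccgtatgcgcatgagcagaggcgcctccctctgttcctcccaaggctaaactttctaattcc
LAMC1, chr1:183023170-183023419, plus strand: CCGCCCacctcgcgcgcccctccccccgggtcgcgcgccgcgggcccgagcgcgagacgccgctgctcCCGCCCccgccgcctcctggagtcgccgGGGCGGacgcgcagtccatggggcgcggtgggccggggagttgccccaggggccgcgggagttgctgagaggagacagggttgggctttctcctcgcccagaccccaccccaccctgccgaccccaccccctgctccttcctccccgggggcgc

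LAMA3 held 2 AP-1 matches, starting at bases 126 and 182 of the window, and the LAMB3 window shown held 1, at base 184. The other LAMB3 windows, which overlap each other, held none, and neither did those of the remaining members. TGAGTCA was present in 4.2% of 35116 windows of the same length, so a match in a given window is uncommon, but no binding was measured here. That share is per window, and LAMB3 had 3, of which the 1 with a match is shown. The GC box, present in 42.6% of windows, was found 4 times in the LAMB1 window, where some matches overlap, 3 times in that of LAMC1 and 1 time each in the LAMA3 and LAMB3 windows shown. The letters GGAATG (TEAD factors, 11.9% of windows) and CACGTG (an E-box, 6.34%) were in none of the 9 windows.

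Depth and identity were checked over the arrays. Between 16259 and 19814 of 47228 probes were detected on an array at a detection p under 0.05, and the number of arrays limits the precision. Replicates correlated at 0.991 to 0.994 and arrays of different cell lines at 0.867 to 0.892, across probes. All 5 epithelial markers were detected on every Capan-1 array, whereas in MIA PaCa-2 only KRT8 and KRT18 were, and CDH1 on none. The 3 mesenchymal markers were mixed, VIM being higher in MIA PaCa-2 (13.20 against 5.88 with probe 830593), CDH2 detected on 0 MIA PaCa-2 and 6 Capan-1 arrays, and ZEB1 on none in either line. Fibroblast, endothelial and leukocyte markers lay near background, with PECAM1 on 5 Capan-1 arrays and CD14 on 5 MIA PaCa-2 arrays at most. The PTK2 probe 450253 read 9.45 and 9.46 (normalized log2 intensity) with shCtrl in MIA PaCa-2, 7.28 and 7.14 with sh1209, and 6.92 and 7.03 with sh1319. In Capan-1 it read 10.35 and 10.17, 9.66 and 9.63, and 8.48 and 8.49. With sh1209 it fell by 2.24 (adjusted p = 1.5e-07) in MIA PaCa-2 but by 0.61 (0.0036) in Capan-1, and with sh1319 the falls were 2.48 (5.2e-08) and 1.78 (5.9e-06). Its second probe, 2680750, was dimmer, with group means of 4.76 to 5.35 for MIA PaCa-2 and 5.51 to 5.97 for Capan-1. It was detected on every array except MIA PaCa-2 sh1319 replicate 2. This probe passed the test against shCtrl nowhere. Its differences for MIA PaCa-2 were 0.31 with sh1209 and -0.29 with sh1319. For Capan-1 each hairpin gave -0.46 (adjusted p = 0.08 with sh1209, 0.09 with sh1319). The called falls in PTK2 are thus those of probe 450253.

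Of the 17 laminin probes, 9 probes of 6 genes were detected on at least 2 arrays and were tested. The other 8, all probes of LAMA1 (3) and LAMA4 (2), 2 of the LAMA3 probes and 1 LAMB3 probe, read 74.7 to 98.2 in raw intensity and were detected on at most 1 array each, so no level is given for LAMA1 and LAMA4. Differences below are log2 differences of normalized intensity, and a probe is said to rise or fall where its Benjamini-Hochberg adjusted p from limma, over 24207 probes, was under 0.05.

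Against shCtrl, sh1209 in MIA PaCa-2 raised 1 of the 9 probes and lowered 1, while 18% of all tested probes passed (9.05% rose and 8.99% fell). In the same cells sh1319 raised 2, beside 24.3% passing (12.2% rose and 12.1% fell). In Capan-1 sh1209 raised 2, beside 16.8% passing (8.14% rose and 8.69% fell), and sh1319 raised 2, beside 13.7% passing (6.95% rose and 6.77% fell). With 9 probes such counts do not separate the chains from the background. By the methods' t-test on the same values 1, 2, 2 and 0 probes passed unadjusted, in that order, beside 4613, 5646, 4935 and 4393 of all 24207 probes. These were not always the probes called by limma. With sh1209 in MIA PaCa-2 the t-test passed LAMA5, and not LAMB1 2630746 or LAMC1. With sh1209 in Capan-1 it passed LAMB3 730040 and LAMA3 2650612, and not LAMA3 6480592. After Benjamini-Hochberg adjustment the t-test called 1, 4, 0 and 0 of all probes, so its 0 laminin probes say nothing about the chains. The called chains are described by their place in the trimer, with the test of the difference between cell lines beside each. The 9 probes had medians of 0.06 (sh1209) and 0.11 (sh1319) in MIA PaCa-2, and the Capan-1 medians were 0.34 and 0.28, beside medians of all probes between -0.01 and 0.01.

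**Figure D1:**
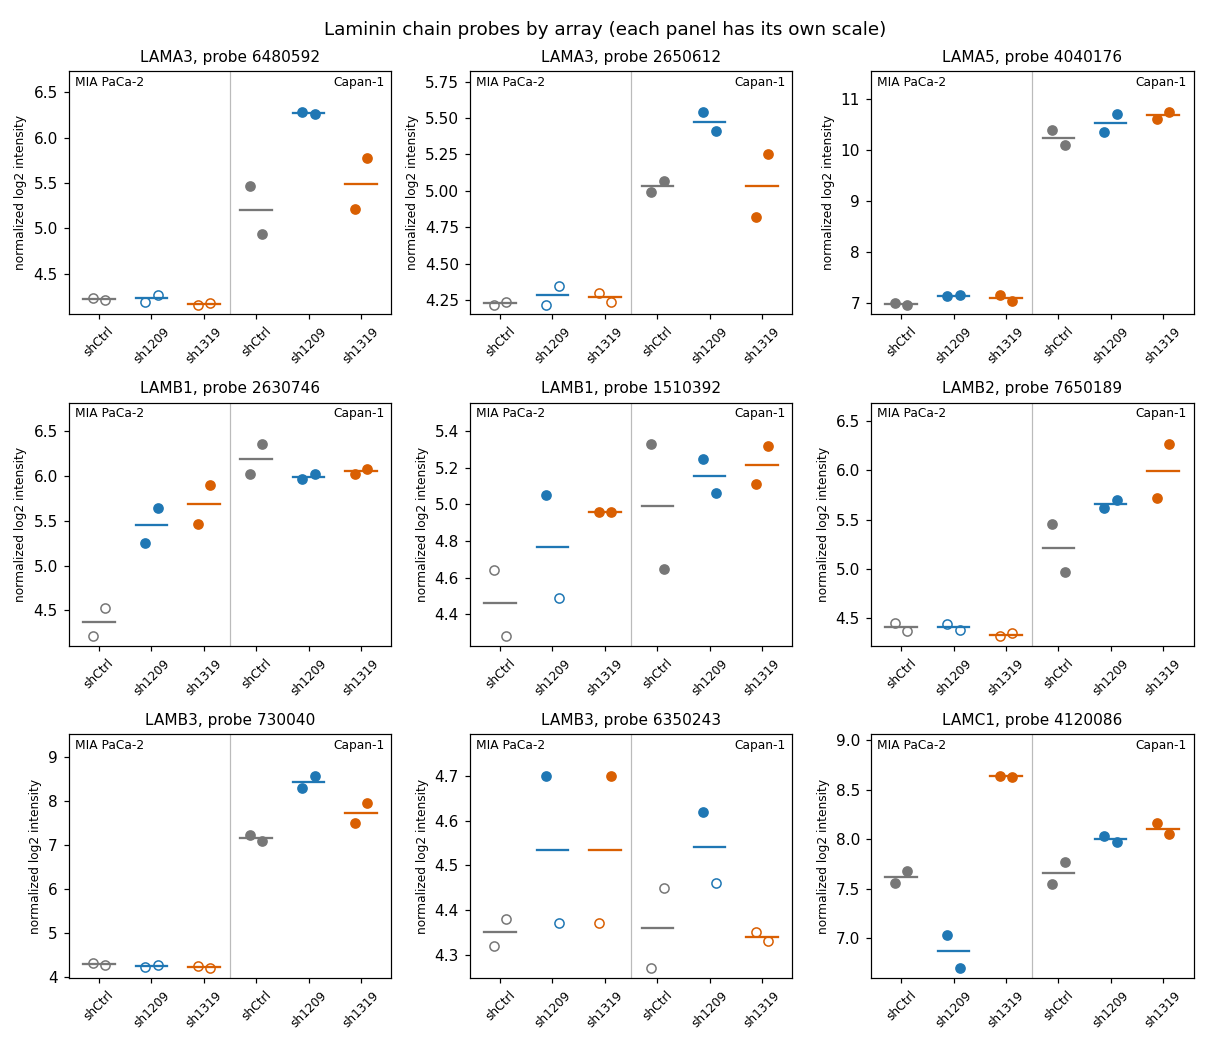
Normalized log2 intensity (y axis, a separate scale in each panel) of the 9 tested laminin probes on each array, by cell line and hairpin. Filled points are detected, open points are not, and bars are means of 2 arrays. LAMC1 lies below its control with sh1209 and above it with sh1319 in MIA PaCa-2, and LAMB3 rises from 7.17 to 8.43 with sh1209 in Capan-1.

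Among the alpha chains, LAMA3 rose with sh1209 in Capan-1, where both tested probes were detected on all 6 arrays. Its probe 6480592 read 5.47 and 4.94 with shCtrl in Capan-1, 6.28 and 6.26 with sh1209, and 5.21 and 5.77 with sh1319. The sh1209 arrays stood clear of the controls, while the sh1319 arrays overlapped them. The difference was 1.07 (SE 0.19, adjusted p = 0.0029) with sh1209 and 0.28 (SE 0.19, adjusted p = 0.41) with sh1319. Without background correction the sh1209 difference was 0.45, still past the threshold. The mean change did not pass the test of a difference between the cell lines (-0.70, adjusted p = 0.072), nor for sh1319 alone, while that with sh1209 alone did (-1.06, adjusted p = 0.022). The other tested LAMA3 probe, 2650612, differed by 0.45 (adjusted p = 0.053) and 0.01 (0.99). Its sh1209 difference did pass with median scaling, a stricter filter and array weights. In MIA PaCa-2 both probes read 4.16 to 4.35 and were detected on none of the arrays. The tests between the cell lines therefore restate the Capan-1 changes and cannot show whether the lines respond differently.

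LAMA5 was detected on all 12 arrays and did not pass the limma test with either hairpin. It read 6.99 and 6.96, 7.12 and 7.15, and 7.15 and 7.03 in MIA PaCa-2 (shCtrl, sh1209, sh1319), and 10.38 and 10.10, 10.35 and 10.70, and 10.61 and 10.74 in Capan-1. The differences were 0.16, 0.11, 0.28 and 0.43 in that order, the last with a 95% interval of 0.12 to 0.75 and an adjusted p of 0.07. That last difference did pass without background correction (0.41, adjusted p = 0.0043), with an offset of 50 (0.42, 0.016) and with a stricter filter (0.43, 0.043).

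Among the beta chains, LAMB1 rose in MIA PaCa-2 and LAMB3 in Capan-1. The LAMB1 probe 2630746 read 4.21 and 4.53 with shCtrl in MIA PaCa-2, detected on neither array, 5.25 and 5.65 with sh1209, and 5.47 and 5.90 with sh1319. Both knockdown groups were detected and lay above both controls. The rise was at least 1.67-fold with sh1209 (fitted difference 1.08, adjusted p = 0.0019) and at least 1.96-fold with sh1319 (1.31, adjusted p = 3.2e-04), where the bound sets the knockdown mean against the lowest signal detected on the control arrays. Without background correction the fitted differences were 0.40 and 0.49, still called. In Capan-1 the same probe read 6.03 and 6.36, 5.97 and 6.02, and 6.03 and 6.08, differences of -0.20 and -0.14 that did not pass, of which the former turned to 0.03 under median scaling. The change in MIA PaCa-2 exceeded that in Capan-1 by 1.36 (SE 0.23, adjusted p = 0.0022), a comparison in which 14.4% of all probes passed (7.24% higher and 7.11% lower) and in which 1 laminin probe was higher and 1 lower. The other LAMB1 probe, 1510392, passed in no comparison. It differed by 0.31 and 0.50 in MIA PaCa-2, the latter with an interval of -0.01 to 1.01, so the probes of this gene differ in what they call.

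LAMB3 rose in Capan-1 with both FAK hairpins, and its main probe was detected on no MIA PaCa-2 array. Probe 730040 read 7.24 and 7.10 with shCtrl in Capan-1, 8.30 and 8.57 with sh1209, and 7.49 and 7.95 with sh1319. The 3 groups did not overlap. The rise was 1.26 (2.40-fold, SE 0.15, adjusted p = 2.2e-04) with sh1209 and 0.55 (1.47-fold, SE 0.15, adjusted p = 0.035) with sh1319. The smaller rise lost its call without shCtrl replicate 1 (0.62, adjusted p = 0.088) or 2 (0.48, 0.18), without sh1319 replicate 2 (0.32, 0.26), and in a fit of Capan-1 alone (0.55, 0.062). In MIA PaCa-2 the 6 arrays read 4.21 to 4.33, and differences of -0.05 and -0.08 there are between undetected values. The mean change in MIA PaCa-2 was below that in Capan-1 by 0.97 (interaction -0.97, SE 0.19, adjusted p = 0.0053). With no MIA PaCa-2 array detected, this test and those of each hairpin alone restate the Capan-1 change. They cannot show whether the cell lines respond differently. For sh1209 alone the difference between cell lines was -1.31 (adjusted p = 0.0019, with 14.8% of all probes passing), and for sh1319 alone -0.64 (adjusted p = 0.078, with 14% passing). A second LAMB3 probe, 6350243, was detected on single arrays of 3 groups and passed nowhere.

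LAMB2 was likewise detected on the Capan-1 arrays only, where it rose with sh1319. It read 5.45 and 4.97 with shCtrl, 5.62 and 5.70 with sh1209, and 5.72 and 6.27 with sh1319. Both hairpin groups lay above the controls. The differences were 0.45 (adjusted p = 0.13) and 0.78 (SE 0.19, adjusted p = 0.016). The mean change did not pass the test of a difference between the cell lines (-0.66, adjusted p = 0.08), nor did sh1209 alone (-0.45, adjusted p = 0.31). For sh1319 alone the cell lines differed by -0.87 (adjusted p = 0.049, with 14% of all probes passing). The MIA PaCa-2 values were all undetected, so these tests restate the Capan-1 change. They cannot show whether the cell lines respond differently. The call of sh1319 against shCtrl in Capan-1 rested on particular arrays. It was lost without shCtrl replicate 2 (0.54) or sh1319 replicate 2 (0.51). That difference was 0.32 without background correction and 0.46 with an offset of 50.

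**Figure D2:**
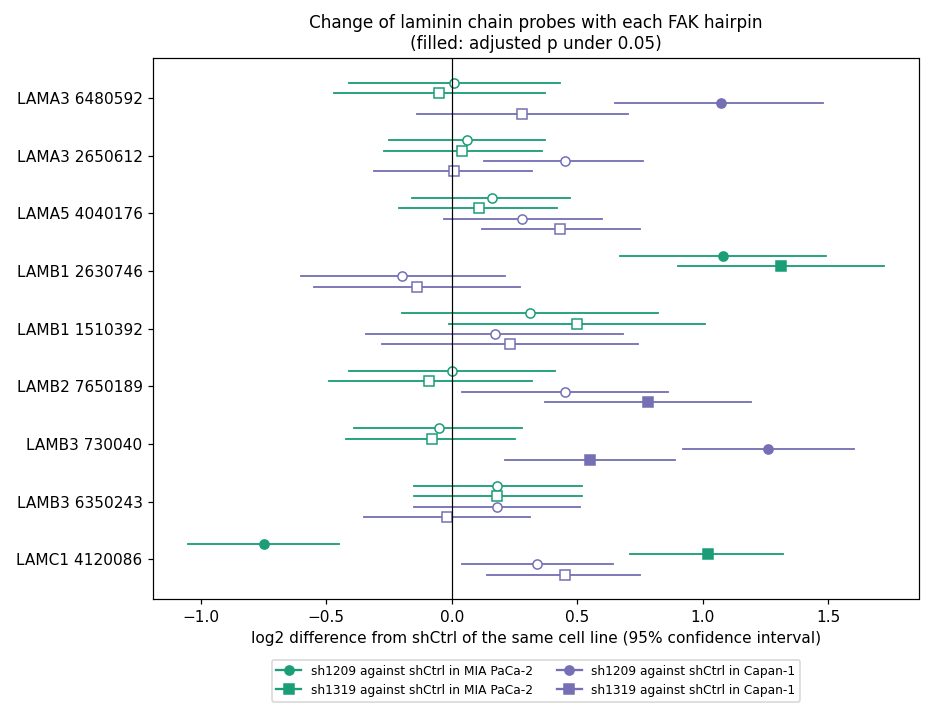
Log2 difference from shCtrl of the same cell line (x axis, with 95% confidence intervals) for each tested laminin probe and hairpin, filled where the adjusted p was under 0.05. The called rises of LAMB1 are in MIA PaCa-2, those of LAMA3, LAMB2 and LAMB3 in Capan-1, and LAMC1 in MIA PaCa-2 is at -0.75 with sh1209 and 1.02 with sh1319.

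LAMC1, the gamma chain shared by most laminins, moved in opposite directions with the FAK hairpins in MIA PaCa-2. Its probe 4120086 read 7.56 and 7.68 with shCtrl, 7.04 and 6.70 with sh1209, and 8.64 and 8.63 with sh1319, and the groups did not overlap. It fell by 0.75 with sh1209 (SE 0.14, adjusted p = 0.0029) and rose by 1.02 with sh1319 (SE 0.14, adjusted p = 2.3e-04). The hairpins differed by 1.77 (3.40-fold, SE 0.14, adjusted p = 3.9e-06), the only laminin probe of the 9 past the threshold between them in MIA PaCa-2, where 22.6% of all probes passed (11.2% higher and 11.5% lower). The PTK2 probe 450253 was not called between the hairpins there, with sh1319 minus sh1209 at -0.24 (95% interval -0.49 to 0.01, adjusted p = 0.17). The dimmer PTK2 probe 2680750 was called, at -0.59 (adjusted p = 0.021). The part of PTK2 in the LAMC1 difference was not tested. In Capan-1 LAMC1 read 7.55 and 7.77 with shCtrl, 8.03 and 7.97 with sh1209, and 8.16 and 8.05 with sh1319. Both hairpin groups lay above the controls, with differences of 0.34 (adjusted p = 0.13) and 0.45 (0.054), and the hairpins differed by 0.11 (interval -0.20 to 0.41). Both differences from shCtrl did pass without background correction and with an offset of 50. That with sh1319 also passed with median scaling, a stricter filter, array weights and a fit of Capan-1 alone. The difference between hairpins in MIA PaCa-2 exceeded the one in Capan-1 by 1.66 (SE 0.20, adjusted p = 1.9e-04; 14.4% of all probes passed). The mean change over the hairpins did not pass the test of a difference between the cell lines (-0.26, adjusted p = 0.36). For sh1209 alone it passed (-1.09, adjusted p = 0.0031, with 14.8% of all probes passing), and for sh1319 alone it did not (0.57, adjusted p = 0.078). The order of the group means, from low to high, was MIA PaCa-2 sh1209 (6.87), MIA PaCa-2 shCtrl (7.62) and Capan-1 shCtrl (7.66), whose arrays overlap, then Capan-1 sh1209 and Capan-1 sh1319 (8.11), which differed by less than the test could call, and MIA PaCa-2 sh1319 (8.64).

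Averaged over the 4 hairpin and cell line pairs, 3 of the 9 probes rose and none fell, while 12.5% of all probes rose and 12.7% fell. LAMB1 2630746 rose by 0.51 (adjusted p = 0.0063), LAMB3 730040 by 0.42 (0.0068) and LAMC1 by 0.26 (0.04). These means cover unequal parts, since LAMB1 was called in MIA PaCa-2, LAMB3 in Capan-1 and LAMC1 in both directions. The LAMC1 call was lost in 12 of 20 alternatives, among them the fit with replicate as a block (adjusted p = 0.051) and 10 of the fits that left out an array (adjusted p 0.051 to 0.17). Median scaling of the arrays moved the median of all probes by up to 0.11 (sh1319 in Capan-1), and with it 78% of the combined calls were higher, beside 49.6% here.

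**Figure D3:**
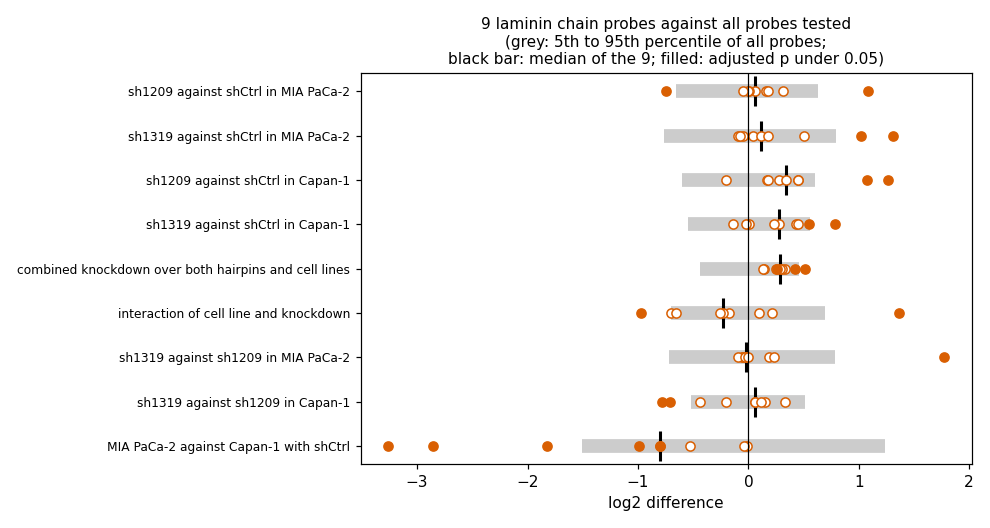
Log2 difference (x axis) of the 9 laminin probes in each comparison, filled where the adjusted p was under 0.05, over a grey bar from the 5th to the 95th percentile of all tested probes, with the median of the 9 as a black bar. The medians of single hairpins against shCtrl lie between 0.06 and 0.34. In the cell line row, 4 of the lower probes were detected in Capan-1 only.

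In shCtrl cells, without a FAK hairpin, the cell lines differed in their laminin probes. MIA PaCa-2 was lower for 6 of the 9 probes and higher for none, while 42.1% of all probes passed (19.6% lower and 22.5% higher). The count is no support for a direction, since 4 of the 6 probes (both of LAMA3, LAMB2 and LAMB3 730040) were detected on 0 MIA PaCa-2 arrays and passed the filter on low values through Capan-1 only. LAMA5, detected in both lines, differed by -3.26 (SE 0.14, adjusted p = 4.0e-09). The remaining 5 were not detected in MIA PaCa-2 shCtrl. Set against the lowest signal detected on those arrays, Capan-1 was 5.51-fold higher for LAMB3 730040, 2.80-fold for LAMB1 2630746 and 1.42-fold for LAMB2. The LAMA3 probes 6480592 and 2650612 gave 1.41-fold and 1.25-fold. These folds carry no interval and are not lower limits. In the alternatives the log2 differences shrank to as little as -1.30, -0.72, -0.27, -0.39 and -0.32, in that order. The LAMB2 call was lost without Capan-1 shCtrl replicate 1 (-0.56, adjusted p = 0.053). LAMC1 did not separate the lines (-0.04, interval -0.34 to 0.26). The summed raw intensity of the epithelial markers over 6 probes was 1373 to 2415 in MIA PaCa-2 and 8908 to 13958 in Capan-1. EPCAM (mean log2 4.54 and 11.31), KRT19 (5.06 and 12.49) and CDH1 (4.25 and 9.73) were higher in Capan-1, while KRT8 (10.17 and 10.79) and KRT18 110431 (6.93 and 7.42) were closer and KRT18 6280128 was higher in MIA PaCa-2, at 5.80. Their part in the laminin difference was not tested. In such bulk RNA, fewer cells of a type and less RNA per cell cannot be told apart.

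Between the FAK hairpins in Capan-1, 2 probes were lower with sh1319 than with sh1209 (11.3% of all probes passed, 5.47% higher and 5.81% lower), LAMB3 730040 by -0.71 (SE 0.15, adjusted p = 0.012) and LAMA3 6480592 by -0.78 (SE 0.19, adjusted p = 0.022). The PTK2 probe 450253 also differed there, by -1.16 (adjusted p = 6.2e-05), with the lower level in sh1319, while probe 2680750 did not (0.00). The part of PTK2 was not tested. Both laminin calls were lost under median scaling (adjusted p 0.091 and 0.05), without sh1319 replicate 1 (-0.48 and -0.51) and without sh1209 replicate 2 (-0.57 and -0.79), and the LAMA3 call also without sh1209 replicate 1 (-0.77).

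Over the 12 arrays, with each cell line's mean taken off, LAMA3 6480592 and LAMB3 730040 correlated at r = 0.94, the highest of the member pairs. LAMA5 with LAMB2 gave 0.83, LAMA3 2650612 with LAMB3 730040 gave 0.81, and LAMC1 with LAMA5 gave 0.08. These LAMA3, LAMB2 and LAMB3 probes were detected on 0 of the 6 MIA PaCa-2 arrays. Values with them mainly describe the 6 Capan-1 arrays in 3 groups and include the hairpin changes already given. All arrays share a chip.

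Beyond the members, LAMA2, the alpha chain of muscle and nerve basement membranes, was detected in MIA PaCa-2 and fell with sh1319 by 1.22 (probe 360181, adjusted p = 3.6e-05) and 0.92 (1470296, adjusted p = 1.8e-04), while sh1209 gave no call. Among 22 tested probes of 10 laminin receptor genes, 4 rose and 3 fell in the combined comparison, beside 25.2% of all probes passing. Those that rose were ITGB4 3940132 (0.79), the integrin chain of hemidesmosomes, DAG1 (0.43), dystroglycan, ITGB1 610452 (0.28) and RPSA 1410537 (0.24). Those that fell were SDC1 6590592 (-0.62), a heparan sulfate proteoglycan, ITGA3 2000368 (-0.35), the integrin alpha chain for epithelial laminins, and ITGB4 4490367 (-0.26), a second probe of a gene whose other probe rose. ITGB4 3940132 rose by 1.43 (sh1209) and 1.61 (sh1319) in MIA PaCa-2, from undetected controls. Its Capan-1 differences were 0.14 and -0.00. DAG1 was called in Capan-1 only (0.76 and 0.88), beside -0.21 and 0.31 for MIA PaCa-2. With single hairpins ITGB1 610452 was called only for sh1209 in Capan-1 (0.59), and RPSA 1410537 nowhere. No other ITGB1 probe was called in the combined comparison. SDC1 6590592 and ITGB4 4490367 were called with single hairpins in MIA PaCa-2 only. In MIA PaCa-2 ITGA3 2000368 fell by 1.56 with sh1209 (adjusted p = 2.9e-05) and was higher by 1.75 with sh1319 than with sh1209 (adjusted p = 8.5e-06). In the interaction CD151, a partner of laminin-binding integrins, had a lower change in MIA PaCa-2 cells than in the Capan-1 cells with 2 of its 3 tested probes (6330474 at -0.61 and 6550259 at -0.91), while probe 1940132 was not called (-0.26, adjusted p = 0.61).

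Of 13 tested probes of basement membrane and hemidesmosome genes, 5 rose and 1 fell in the combined comparison, beside 12.5% of all probes rising and 12.7% falling. COL17A1, the transmembrane collagen of hemidesmosomes, rose by 1.12 and 0.82 with its probes, and by 2.39 (sh1209) and 2.11 (sh1319) in MIA PaCa-2 with probe 990372. In Capan-1 that probe differed by -0.16 (adjusted p = 0.65) and 0.14 (0.71), and the change differed between the cell lines (interaction 2.26, adjusted p = 3.7e-05). The collagen IV chains COL4A1 and COL4A5 rose by 0.41 and 0.44, COL4A1 being called with the single hairpins in MIA PaCa-2 only (interaction 0.51, adjusted p = 0.067) and COL4A5 in Capan-1 only (interaction -0.76, adjusted p = 0.015). COL7A1, the anchoring fibril collagen, rose by 0.35 at the edge of the threshold (adjusted p rounding to 0.05). With single hairpins it was called only for sh1319 in MIA PaCa-2 (0.62, adjusted p = 0.037). NTN4, a netrin that binds laminin, fell by 0.47 (probe 3190021). That probe read near background in MIA PaCa-2 (means 4.70, 4.36 and 4.49), and 6.68, 6.17 and 5.85 in Capan-1 (shCtrl, sh1209, sh1319). The change of AGRN, a proteoglycan that binds the laminin coiled coil, differed between the cell lines (interaction -1.24, adjusted p = 0.0055). AGRN rose in Capan-1 by 0.81 with sh1209 (adjusted p = 0.015) and 0.77 with sh1319 (0.024). Its MIA PaCa-2 differences of -0.43 and -0.48 were not called. Of the proteases that process matrix, 2 probes were tested and BMP1, which cleaves laminin chains, rose by 0.44 in the combined comparison (adjusted p = 0.007). With single hairpins BMP1 was called only for sh1319 in Capan-1 (0.72, adjusted p = 0.013), and it was not detected in MIA PaCa-2 shCtrl.

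For the alpha, beta and gamma chain probes with the highest mean, the most similar probes of other genes were found over the 12 arrays after each cell line's mean was taken off. LAMA5 was most like PAQR7 (r = 0.932), DHDDS (0.932) and NFIX (0.921). LAMB3 730040 was most like PCSK6 (0.984), CEACAM7 (0.980) and PGBD5 (0.972). LAMC1 was most like ERLEC1 (0.982, named C2ORF30 in the table), CD83 (0.979) and COXFA4L3 (0.979, named C15ORF48). These are the highest of 24207 probes over 12 arrays in 6 groups, so high values are found by the search itself, and for LAMB3 730040 the MIA PaCa-2 arrays add only undetected values.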

How the data were processed

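RNA of 12 samples in 6 groups (cell line by hairpin, 2 arrays each) was hybridised to Illumina bead arrays on 1 chip, from 500 ng RNA with an integrity number of at least 7. The authors deposited each probe's intensity on a linear scale with its detection p-value, and the submitters' processing notes name GenomeStudio 2011.1; no normalization was visible in the values. After background correction (limma nec, normexp from the detection p-values, offset 16), 92 control probes were removed and log2 values were then quantile-normalized between arrays. Probes detected at p under 0.05 on at least 2 of 12 arrays were kept, 24207 of 47228. limma 3.58.1 (R 4.3.3) was run on means of 6 groups, which left 6 residual degrees of freedom. The Benjamini-Hochberg threshold was 0.05. Log2 differences of dim probes depend on the background correction.

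Samples were grouped by the deposited labels, and the Capan-1 label shFAK1319 was taken to mean sh1319. Same-numbered arrays did not deviate together (correlations of deviations -0.06 to 0.16 over 15 pairs, 1 over 0.1), so replicate numbers were not used as a block. The combined comparison averages 4 differences, each FAK hairpin minus shCtrl within a cell line, and the interaction is the mean difference in MIA PaCa-2 minus that in Capan-1. A gene was named if it was a member, PTK2, or on a list of laminin, receptor, basement membrane or protease genes and past the threshold in the combined comparison or the interaction; 1 listed gene is not reported here. The further receptor values were chosen after they were seen. The members and lists were chosen with earlier results of these data known. PLEC matched no row, and COL4A6, NID1, NID2, HSPG2, LAMB4, MMP2, PLG and TLL1 had no tested probe. Symbols are those of the table, in which LAMA3 is also an older name of LAMA4, and LAMB2 of LAMC1 and LMNB2. Promoter windows are RefSeq's (GRCh38.p14), cut to the 250 bases before the start. The fit was tested on simulated data. Alternatives were no background correction, an offset of 50, no filter or a stricter one, median scaling, the replicate block, array weights, 1 cell line only, the methods' t-test, a minimum change of 1 and each array left out; the interaction of each hairpin alone was added after seeing the data.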

Additional observations from a re-analysis of the deposited data

Results flagged for a closer look

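LAMB1 probe 2630746 and LAMB3 probe 730040 were picked out because the test of the interaction put their mean hairpin changes in the cell lines apart. For LAMB1 the change in MIA PaCa-2 (1.19) exceeded that in Capan-1 (-0.17) by 1.36 (adjusted p = 0.0022), and the difference was 0.52 without background correction. For LAMB3 the change in MIA PaCa-2 (-0.07) was below that in Capan-1 (0.91), with a difference of -0.97 (adjusted p = 0.0053). LAMB1 was not detected in MIA PaCa-2 shCtrl, so its difference rests in part on values at background. LAMB3 730040 was detected in no MIA PaCa-2 group. Its MIA PaCa-2 change is wholly between values at background, and its difference restates the Capan-1 change.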

How the results depend on the processing

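Counts of laminin probes past the threshold, of 9, were 2, 2, 2, 2, 3, 2, 1, 2 and 6 in the order sh1209 and sh1319 in MIA PaCa-2, sh1209 and sh1319 in Capan-1, combined, interaction, the hairpin difference in MIA PaCa-2 and then Capan-1, and the cell lines with shCtrl. For sh1319 in Capan-1 the count was 4 without background correction, with an offset of 50 and with a stricter filter, and 0 with a minimum change of 1 or the methods' t-test, unadjusted or adjusted. The combined count was 5 with an offset of 50, median scaling or the stricter filter and 0 with the minimum change. The interaction count was 4 with median scaling or for sh1209 alone and 1 with the minimum change. The Capan-1 hairpin difference gave 0 with median scaling, the minimum change and either form of the t-test. For sh1209 in MIA PaCa-2 the count was 1 with the minimum change or the unadjusted t-test and 0 with the adjusted one. The cell line count was 3 with the minimum change or the adjusted t-test, which gave 0 for sh1319 in MIA PaCa-2, sh1209 in Capan-1 and the MIA PaCa-2 hairpin difference. Leaving out arrays gave 2 to 2, 2 to 2, 2 to 3, 0 to 3, 2 to 6, 2 to 4, 1 to 1, 0 to 3 and 5 to 7 in the same order. Directions turned for LAMB1 2630746 with sh1209 in Capan-1 (-0.20 to 0.03, median scaling), LAMA5 between the hairpins in Capan-1 (0.15, with -0.03 to 0.32 when arrays were left out, the lowest without Capan-1 sh1209 replicate 1), and, for sh1319 alone, the interactions of LAMA3 2650612 (-0.18 to 0.04) and LAMC1 (-0.26 to 0.57). Where both values were uncalled and the value of the main fit lay within 1 SE of 0, a change of sign was not counted. The cause of these changes was not tested. With replicate as a block, 2 probes passed in the combined comparison, since LAMC1 was lost (0.26, adjusted p = 0.051), and the other counts were the same. Median scaling put the higher share of called probes at 81.7% (48.4% with quantile normalization) for sh1209 in Capan-1, 85.3% (50.6%) for sh1319 in Capan-1, 66.6% (50.3%) for sh1319 in MIA PaCa-2, 78% (49.6%) combined, 31.7% (50.4%) for the interaction and 65.3% (49.4%) for the MIA PaCa-2 hairpin difference. Signal over background limits LAMA1, LAMA4 and most probes of LAMA3 and LAMB3 in MIA PaCa-2.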
